A study of Mus musculus with 8 samples.

Results

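Periplakin (Ppl), 3 keratins (Krt8, Krt18 and Krt23) and 6 genes of epithelial cell junctions (Cldn1, Cldn3, Marveld3, Ocln, Tjp1 and Cdh1) were followed in livers lacking Snd1, an RNA-binding protein with nuclease-like domains and a Tudor domain. All probes carrying the symbol of 1 of these 10 genes in the platform annotation were taken, which gave 12 probes of the 25697 on the array and 10 of the 16593 genes that it names. The 10 genes were chosen with earlier results of the same KO and WT arrays in view, so their differences between the groups are given as a description with no p, and counts of called probes among them stand only beside those over all probes. Total RNA from the left liver lobe of 4 Snd1 knockout (KO) and 4 wild type (WT) mice was hybridised, 1 animal to an array, to the Illumina MouseRef-8 v2.0 platform to learn which liver transcripts change when Snd1 is deleted. KO mice carried a germline deletion of the first Snd1 exon in every tissue, made by crossing a floxed line from 129/Sv embryonic stem cells with mice expressing Cre from the ubiquitous CAG promoter and backcrossing to C57BL/6N. WT mice carried the intact gene. Both groups were C57BL/6N males of 8 to 12 weeks, bred as littermates from heterozygous pairs, not fasted and sampled around noon.

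Keratins form the intermediate filaments of epithelial cells as pairs of a type I and a type II protein, and hepatocytes build theirs from keratin 8 (type II) and keratin 18 (type I). Plakins such as periplakin are large linker proteins that tie these filaments to desmosomes and other sites at the plasma membrane. Tight junctions seal the bile canaliculus between neighbouring hepatocytes through claudins, occludin and its MARVEL-domain relatives, which zonula occludens proteins hold to the actin cytoskeleton, and E-cadherin carries the adherens junction beside them.

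Values below are log2 of background-corrected and quantile-normalized intensity unless intensity as deposited is named. A probe counted as detected on an array when its deposited detection p-value was under 0.05, and the 10945 probes with a gene symbol that reached this on 4 or more arrays out of 8 were kept. Mean intensity before normalization was 215 to 290.0 on the KO arrays and 262 to 283 on the WT arrays, with KO 1 and KO 4 the dimmest (215 and 223), and 10684 to 11985 probes were detected on KO arrays against 11446 to 12134 on WT arrays. Snd1 itself was detected on 0 of 4 KO arrays and 4 of 4 WT arrays, with 4.24, 4.20, 4.22 and 4.15 in the KO livers and 6.80, 6.78, 6.77 and 6.88 in the WT livers. Its level was at least 4.94-fold lower in KO (fitted difference -2.60 ± 0.10 SE, limma, adjusted p = 2.72e-07), although the place of the probe relative to the deleted exon was not known. A probe was called at a Benjamini-Hochberg adjusted p under 0.05 over all kept probes.

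Of the 12 probes 11 were kept, at least 1 for each of the 10 genes. Among these 11 probes, 2 were called higher in KO, the brighter Ppl probe and the brighter Marveld3 probe. Of the rest, 0 were called lower and 9, Krt23 among them, were not called. Over all kept probes 276 were called, or 2.52%, and 133 were called higher in KO, or 1.22%. On 4 of the 11 probes every KO value lay above every WT value, against 619 of all kept probes (5.66%). Because the genes were chosen on this contrast, nothing is read from these counts. The median difference of the 11 probes, KO minus WT, was 0.37, and 9 of the 11 lay above 0, beside a median of 0.0069 and 51.3% above 0 over all kept probes. Among the 11, the dimmer Ppl probe and the brighter Marveld3 probe passed the detection filter only through the KO arrays.

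**Figure D1:**
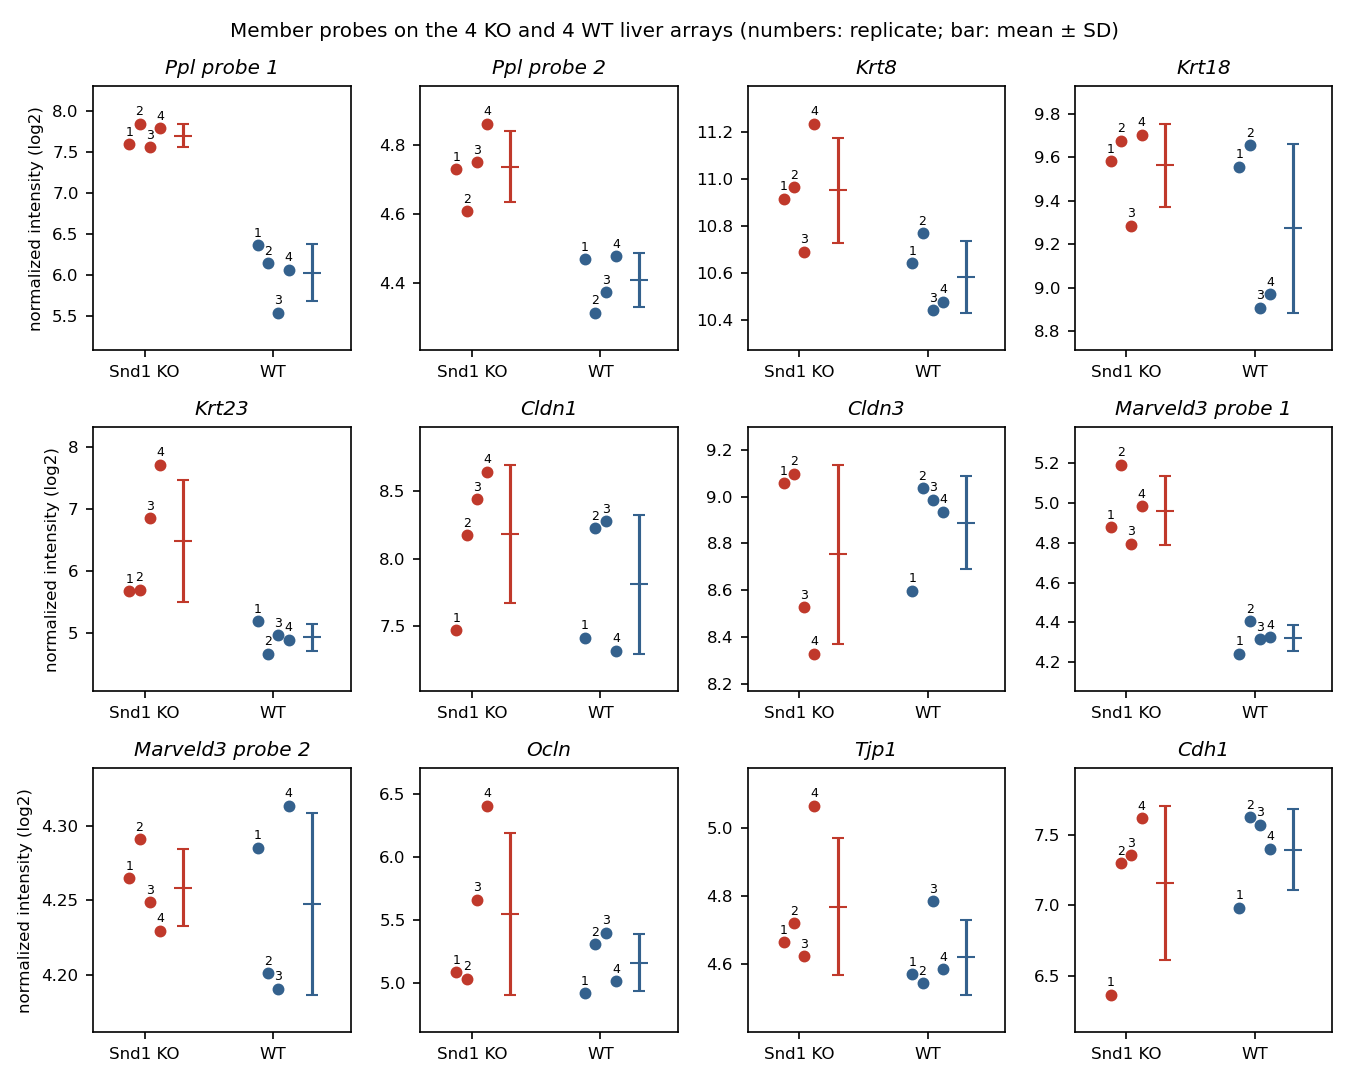
Normalized log2 intensity (vertical axis, own scale in each panel) of the 12 probes on the 4 Snd1 KO arrays (red, left) and the 4 WT arrays (blue, right), with replicate numbers beside the points and bars for the mean ± SD. The groups stand apart for both Ppl probes, Krt23 and Marveld3 probe 1, and they overlap on the other 8 probes.

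Ppl showed the largest difference of the 10 genes. Its brighter probe (ILMN_3155363) had deposited intensities of 210, 347, 299 and 255 on the KO arrays, against 160.0, 144, 119 and 141 on the WT arrays. After normalization the KO livers had 7.60, 7.85, 7.56 and 7.79 and the WT livers had 6.37, 6.15, 5.55 and 6.07. The 4 KO livers were close to each other and all lay above the highest WT liver, with a gap of 1.19 between the groups, while WT 3 was the lowest of all. Mean values were 7.70 ± 0.14 in KO and 6.03 ± 0.35 in WT (SD, n = 4 each), a difference of 1.67 ± 0.17 (SE), or 3.17-fold.

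The other Ppl probe (ILMN_3076424) was close to background, with 4.73, 4.61, 4.75 and 4.86 in KO and 4.47, 4.31, 4.37 and 4.48 in WT. It was detected on 4 of 4 KO arrays and 1 of 4 WT arrays. After normalization the groups did not overlap on this probe, but the gap was 0.13 and the difference 0.33 ± 0.10 (SE). Its deposited intensities overlapped, with 91.4, 101, 103 and 96.5 in KO and 96.2, 91.3, 92.9 and 96.0 in WT. Since it was kept only through the KO arrays, it is not a second reading of the difference. With the background left uncorrected the difference of the brighter probe was 1.02, and both uncorrected background and the offset added before taking log2 compress the fold of dim probes. Leaving out KO 1 and KO 4, the dimmest arrays, gave 1.69.

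The 5 genes whose pattern over the 8 arrays was most like that of the brighter Ppl probe were Vldlr, Rnf145, Fads2, Slc7a2 and Acot3. Likeness was the root mean square difference of log2 values centred on each probe's mean, which was 0.297 for Vldlr, 0.298 for Rnf145, 0.300 for Fads2, 0.314 for Slc7a2 and 0.338 for Acot3, beside a median of 0.880 over the 10944 other kept probes and 0.707 for the dimmer Ppl probe. All 5 share with Ppl a gap between KO and WT, which this measure weights, and all 8 points of each came from the same arrays. Differences were 1.25 for Vldlr, 1.15 for Rnf145, 1.31 for Fads2, 1.47 for Slc7a2 and 1.93 for Acot3. Vldlr was detected on 4 KO arrays and 0 WT arrays, so it was kept only through the KO arrays. Its bound, at least 2.10-fold higher in KO, comes from the values that picked it and is a description only.

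Krt23 stood apart from the paired hepatocyte keratins. Krt23 encodes a type I keratin known from ductular cells of injured liver, and its only probe had deposited intensities of 109, 134, 211 and 246 in KO and 111, 98.1, 104 and 104 in WT. Normalized values were 5.68, 5.70, 6.85 and 7.71 in the KO livers and 5.19, 4.67, 4.96 and 4.89 in the WT livers. Before normalization the groups overlapped, with KO 1 (109) below WT 1 (111). After it KO 3 and KO 4 stood well above KO 1 and KO 2, and all 4 KO livers lay above the WT livers, the lowest by a gap of 0.49. The mean was 6.49 ± 0.99 in KO and 4.93 ± 0.22 in WT (SD, n = 4 each), a difference of 1.56 ± 0.39 (SE), or 2.95-fold. This difference was nearly as large as that of Ppl, but the spread among KO livers was wider. It was 1.85 without KO 1, 1.16 without KO 4, 1.38 without both, 1.88 with array weights and 0.71 without background correction.

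Krt8 was detected on all 8 arrays and overlapped between the groups. Deposited intensities were 1472, 2437, 1945 and 1877 in KO and 1872, 1788, 1490 and 1568 in WT. After normalization the KO livers had 10.92, 10.97, 10.69 and 11.24 and the WT livers had 10.64, 10.77, 10.44 and 10.48. KO 3 was below WT 2, and the difference was 0.37 ± 0.14 (SE), or 1.29-fold. Krt18, which encodes the partner of keratin 8, had 9.58, 9.68, 9.29 and 9.71 in KO and 9.56, 9.66, 8.91 and 8.97 in WT. WT 1 and WT 2 reached the level of the KO livers and WT 3 and WT 4 stood below them, which gave a difference of 0.29 ± 0.19 (SE), or 1.22-fold, with overlapping groups. On both probes KO 4 was the highest KO liver and KO 3 the lowest, and WT 1 and WT 2 were above WT 3 and WT 4. The Krt18 difference was 0.17 without WT 3 and 0.19 without WT 4, and array weights gave 0.20 for Krt8 and 0.15 for Krt18.

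Krt8 and Krt18 are neighbours on mouse chromosome 15 with 0 protein-coding genes between them and are transcribed in opposite directions, whereas Krt23 lies in the type I cluster on chromosome 11. RefSeq promoter windows (GRCm38.p6, 250 bases before to 50 after the annotated start) matched 7 of the 10 genes, with 8 windows in all, and Ppl, Marveld3 and Cdh1 had none. Those of the 3 keratins are shown, since the first pair shared its order of arrays and Krt23 did not, at chr15:102004313-102004592 (minus strand) for Krt8, chr15:102027966-102028245 (plus strand) for Krt18 and chr11:99493091-99493370 (minus strand) for Krt23. Each runs 5′ to 3′ on the gene's strand over the 250 bases before the start and the first 30 after it, with the motifs named below in capitals.
Krt8: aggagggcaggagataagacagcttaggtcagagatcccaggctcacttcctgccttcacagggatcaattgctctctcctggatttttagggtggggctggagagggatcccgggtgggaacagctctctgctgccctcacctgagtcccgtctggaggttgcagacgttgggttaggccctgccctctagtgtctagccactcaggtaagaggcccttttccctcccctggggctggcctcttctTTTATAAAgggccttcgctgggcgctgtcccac
Krt18: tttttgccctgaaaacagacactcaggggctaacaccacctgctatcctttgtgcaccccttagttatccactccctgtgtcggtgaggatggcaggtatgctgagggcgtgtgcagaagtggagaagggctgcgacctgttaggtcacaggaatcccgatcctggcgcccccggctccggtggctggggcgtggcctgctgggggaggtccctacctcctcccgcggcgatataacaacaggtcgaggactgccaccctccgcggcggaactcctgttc
Krt23: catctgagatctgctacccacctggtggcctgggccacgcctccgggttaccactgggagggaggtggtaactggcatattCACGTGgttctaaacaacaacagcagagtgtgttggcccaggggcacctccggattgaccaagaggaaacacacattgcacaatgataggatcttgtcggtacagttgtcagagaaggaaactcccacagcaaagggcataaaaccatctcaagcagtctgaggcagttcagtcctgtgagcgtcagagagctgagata

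Motifs of 5 kinds were searched on both strands of the full windows, and a match is a description of the letters, not of a binding site. TATAAA was found in 1 of the 8 windows, beside 13.6% of 32851 RefSeq promoter windows. That match was in Krt8, where TATAAA on both strands overlaps across the annotated start. ACGTG, the core of the hypoxia response element, was in 3 windows (19.6% of all), among them Krt23, whose CACGTG holds it on both strands from position -169. GGGCGG, the GC box, was in 5 windows (35.7% of all), which were those of Cldn1, Cldn3, Tjp1 and both starts of Ocln. CCAAT was in 1 window of Ocln (37.4% of all), and TTCNNNGAA, the STAT palindrome, was in 0 (8.30% of all). Krt18 held none of these motifs.

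Tight junction genes were split between 1 dim gene that stood apart after normalization and others that overlapped. Marveld3 encodes a MARVEL-domain protein related to occludin, and its brighter probe (ILMN_2632585) had 4.88, 5.19, 4.80 and 4.98 in KO and 4.24, 4.41, 4.32 and 4.32 in WT. It was detected on 4 of 4 KO arrays and on 0 of 4 WT arrays, where the level is only bounded. After background correction and normalization, every KO liver lay above every WT liver by a gap of 0.39. On that scale the level was at least 1.40-fold higher in KO (fitted difference 0.64 ± 0.12, SE). Since the probe was kept only through the KO arrays, its separation is a description and not support for a difference. The deposited intensities behind this were 93.3, 116, 104 and 98.6 in KO and 91.0, 93.3, 91.6 and 92.9 in WT, so before normalization KO 1 and WT 2 were both at 93.3. Without background correction the difference was 0.19. The other Marveld3 probe (ILMN_2711608) was detected on no array, with 4.26, 4.29, 4.25 and 4.23 in KO and 4.29, 4.20, 4.19 and 4.31 in WT, and was not tested.

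Ocln encodes occludin, the first transmembrane protein of tight junctions to be described. KO livers had 5.08, 5.03, 5.66 and 6.40 and WT livers had 4.92, 5.30, 5.40 and 5.01. KO 3 and KO 4 were above all WT livers and KO 1 and KO 2 were below the highest WT liver, and the difference was 0.39 ± 0.27 (SE). KO 3 and KO 4 were also the highest arrays for Krt23. Without KO 4 the Ocln difference was 0.10. Cldn1, a sealing claudin, had 7.47, 8.17, 8.44 and 8.65 in KO and 7.42, 8.22, 8.28 and 7.32 in WT. Here both groups were wide (SD 0.51 each, n = 4), KO 1 was as low as WT 1 and WT 4, and the difference was 0.37 ± 0.29 (SE). It was 0.61 without KO 1, 0.22 without KO 4, 0.24 without WT 1 and 0.21 without WT 4.

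Cldn3, another sealing claudin, had 9.06, 9.10, 8.53 and 8.33 in KO and 8.60, 9.04, 8.99 and 8.94 in WT. KO 3 and KO 4, which were high for Krt23, Ocln and Cldn1, were the lowest arrays for Cldn3, and the difference was -0.14 ± 0.19 (SE), with 0.0056 without KO 4 and -0.25 without KO 2. Tjp1, encoding the scaffold protein ZO-1, was dim, with 4.67, 4.72, 4.62 and 5.06 in KO and 4.57, 4.54, 4.78 and 4.59 in WT. Only KO 4 lay above the highest WT liver, and the difference was 0.15 ± 0.13 (SE), or 0.05 without KO 4. Cdh1, which encodes E-cadherin, had 6.37, 7.30, 7.36 and 7.62 in KO and 6.98, 7.62, 7.57 and 7.40 in WT. KO 1 was the lowest array, the other KO livers were within the WT range, and the difference of -0.24 ± 0.25 (SE) became 0.03 without KO 1.

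**Figure D2:**
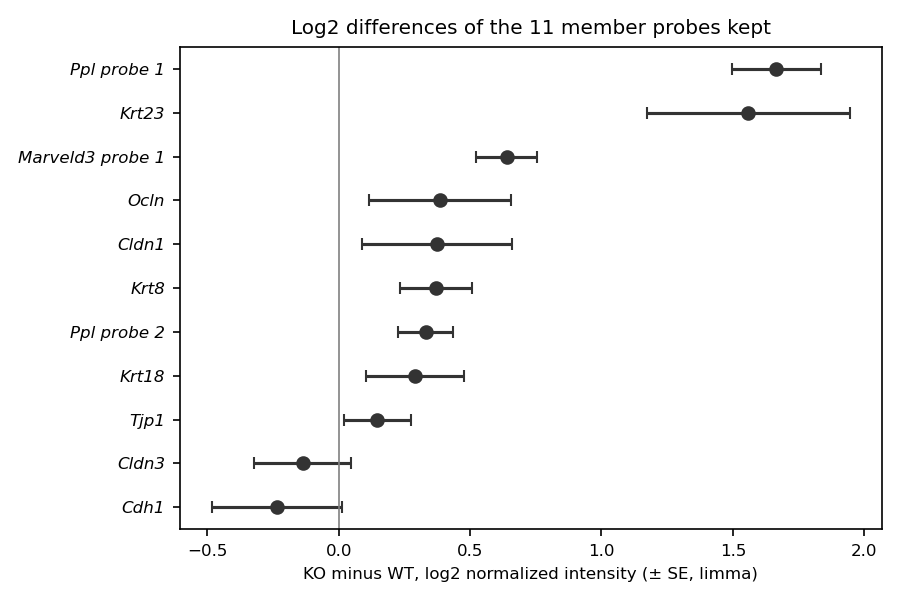
Difference KO minus WT in log2 normalized intensity (horizontal axis, ± SE of the limma fit, n = 4 each) of the 11 kept probes, ordered by size. Ppl probe 1 (1.67) and Krt23 (1.56) lie far to the right of the other 9 probes, which run from -0.24 to 0.64.

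Set against the WT mean of each probe, the KO arrays did not move alike over the 11 probes. KO 4 was above the WT mean on 10 probes with a median deviation of 0.65, KO 3 on 9 (0.34), KO 2 on 9 (0.36) and KO 1 on 8 (0.31). WT arrays were above it on 5 to 8 probes, with median deviations between -0.05 and 0.15. The WT arrays make up that mean, so their deviations cancel on each probe, and the genes were chosen on this contrast. These counts are therefore no comparison of the groups. The KO arrays held almost the same deviation for Ppl, 1.53 to 1.81, and differed most for Krt23, where the deviations ran from 0.75 to 2.79. KO 1 and KO 4 were the dimmest arrays before normalization, and they were the lowest and the highest KO array for Krt23, Cldn1 and Cdh1. Whether dimness had a part in these values was not tested.

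**Figure D3:**
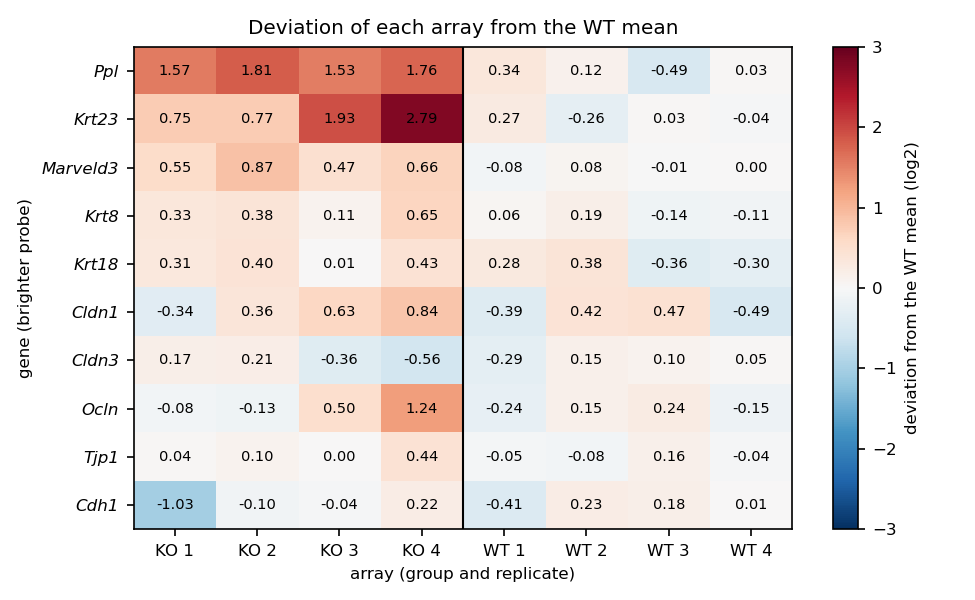
Deviation of each array from the WT mean in log2 units (colour and printed value) for the brighter probe of the 10 genes (rows), with KO 1 to KO 4 left of the line and WT 1 to WT 4 right of it. The Ppl row is evenly red over the KO arrays (1.53 to 1.81), and the Krt23 row is darkest on KO 4 (2.79).

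The same structures hold many more genes, and 1 of their 86 kept probes was called, beside 2.52% of all kept probes. Lists of other plakins, keratins, desmosome, claudin, tight junction, adherens junction, gap junction, hemidesmosome and cornified envelope genes named 159 genes, of which 134 had a probe. Of their 229 probes 86 were kept, covering 58 genes. The call was in the higher direction, 0 were called lower and 85 were not called, while 14 had an unadjusted p under 0.05, beside 1869 of all 10945 kept probes (17.1%). Their median difference was 0.06 with 57 of 86 above 0, beside 0.0069 and 51.3% over all kept probes. The median of these related probes was 0.0018 with 117 of 229 above 0 when no detection filter was set, and 0.02 with 49 of 84 above 0 without KO 1. All KO values lay above all WT values on 7 of the 86 probes (5.66% of all kept probes) and below them on 1, Cd151 (4.80% of all kept probes).

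The called probe belonged to Dst, a plakin (dystonin) that links intermediate filaments to hemidesmosomes in skin. It had 6.37, 6.05, 5.97 and 6.30 in KO and 5.79, 5.62, 5.54 and 5.60 in WT, with no overlap, and rose by 0.54 ± 0.12 (SE, limma, adjusted p = 0.0492). Another kept Dst probe gave 0.41 with overlapping groups (adjusted p = 0.341), and the other 5 Dst probes were detected on no array. The call was lost in 16 of the 17 alternatives that gave the probe a value. Of the other plakins, Eppk1 (epiplakin, a keratin-binding protein) had a difference of -0.25 (adjusted p = 0.468). Plec (plectin, a broad cytoskeletal linker) had 0.14 (adjusted p = 0.701) on 1 kept probe and -0.12 (adjusted p = 0.805) on the other. The size seen for Ppl was thus not shared by the kept probes of its family.

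Other keratins were mostly below detection. The list of 34 genes with a probe had 39 probes, of which 28 were detected on no array and 5 were kept, with a median difference of -0.08 and none called. That median includes Krtcap2 and Krtcap3, which were on the list by name but are keratinocyte-associated proteins and not keratins. They had -0.72 (adjusted p = 0.229) and -0.24 (adjusted p = 0.380). Krtcap2, a subunit of the oligosaccharyltransferase complex, was 10.88, 11.04, 10.27 and 9.43 in KO and 11.15, 11.10, 11.03 and 11.21 in WT, with KO 4 the lowest array. The kept probes of keratins proper differed little. Krt10, an epidermal type I keratin, differed by 0.05 (adjusted p = 0.944), Krt75 by 0.01 (adjusted p = 0.977) and Krt78 by -0.08 (adjusted p = 0.827).

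Desmosome genes had the highest list median, 0.37 over 5 probes, although none was called. All 5 probes came from Pkp2 and Dsg2. Pkp2, the plaque protein plakophilin 2, had 8.12, 7.99, 8.29 and 8.43 in KO and 8.00, 7.78, 7.83 and 7.55 in WT on the probe with the lowest p. KO 2 was just below WT 1 and the other KO livers were above all WT livers, with a difference of 0.42 ± 0.14 (SE, adjusted p = 0.145). Its other probes gave 0.38 and 0.37. Dsg2, the desmosomal cadherin desmoglein 2, had differences of 0.28 on each of its kept probes (adjusted p = 0.460 and 0.548).

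None of the 7 kept probes of other claudins was called (median 0.13). Cldnd1, a claudin-domain protein, had 5.96, 6.08, 5.80 and 5.96 in KO and 5.79, 5.24, 5.32 and 5.42 in WT, a difference of 0.51 ± 0.14 (SE, adjusted p = 0.0822) without overlap, though KO 3 was above WT 1 by only 0.0056. Cldn2, which forms paracellular cation and water pores, differed by 0.35 (adjusted p = 0.240), Cldn12 by 0.16 (adjusted p = 0.576) and Cldn14 by 0.13 (adjusted p = 0.786).

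Among the 28 kept probes of other tight junction genes (median 0.11, none called), Cxadr had the largest difference. This receptor for coxsackievirus and adenovirus is a junctional adhesion protein, and it had 7.44, 8.61, 8.48 and 9.10 in KO and 7.82, 7.33, 7.81 and 7.45 in WT. KO 1 was within the WT range and the other KO livers were above it, with a difference of 0.81 ± 0.29 (SE, adjusted p = 0.183) that became 1.13 without KO 1. Its other kept probes gave 0.69 (adjusted p = 0.213) and 0.34 (adjusted p = 0.447). Ybx3, a Y-box protein that binds ZO-1, was detected on 4 KO arrays and 0 WT arrays on 1 probe, which was kept only through the KO arrays. Its fitted difference was 0.33 ± 0.10 (SE, adjusted p = 0.127), and 0.09 to 0.36 over 11 alternatives. Deposited intensities overlapped, with 92.6, 102, 102 and 93.6 in KO and 93.4, 94.8, 94.4 and 91.5 in WT. Pard3, a polarity scaffold, differed by 0.31 (adjusted p = 0.229) and Mpdz, a scaffold with many PDZ domains, by 0.25 (adjusted p = 0.341), with -0.23 on another Mpdz probe.

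Adherens junction genes gave 21 kept probes with a median of 0.06 and none called. The adhesion protein Nectin3 differed by 0.35 (adjusted p = 0.201), the N-cadherin gene Cdh2, which hepatocytes express beside E-cadherin, by 0.31 (adjusted p = 0.214), Plekha7 by 0.22 (adjusted p = 0.425) and the actin crosslinker Actn4 by 0.20 (adjusted p = 0.437). The 7 gap junction probes had a median of -0.03 and none was called. Gjb1, the main hepatocyte connexin, had 6.74, 6.51, 6.40 and 5.86 in KO and 6.88, 7.28, 6.99 and 6.67 in WT, with KO 1 the one KO liver above the lowest WT liver and a difference of -0.58 ± 0.19 (SE, adjusted p = 0.149). Gjb2, another hepatocyte connexin, differed by 0.22 (adjusted p = 0.615), Gja1 by -0.22 (adjusted p = 0.461) and the endothelial connexin Gja4 by -0.12 (adjusted p = 0.844).

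The 4 hemidesmosome probes were all below 0 (median -0.14) without a call, with Cd151 at -0.18 (adjusted p = 0.419) and the laminin chain Lamb3 at -0.16 (adjusted p = 0.516). The 4 cornified envelope probes had a median of -0.07 and none was called. Tgm1, the transglutaminase that crosslinks periplakin and other envelope proteins in skin, differed by 0.41 (adjusted p = 0.412), Cstb by -0.44 (adjusted p = 0.428), Sprr2a1 by -0.19 (adjusted p = 0.561) and Lor by 0.05 (adjusted p = 0.920).

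**Figure D4:**
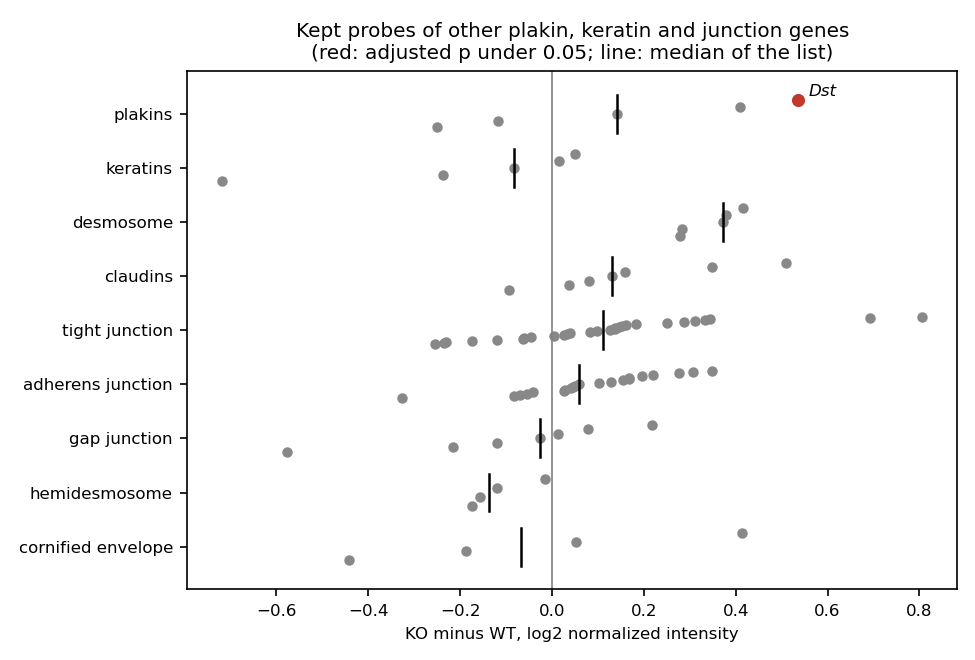
Difference KO minus WT in log2 normalized intensity (horizontal axis) of the 86 kept probes of related genes, 1 row for each of the 9 lists, with a line at the list median and the called probe in red. Most points lie between -0.3 and 0.4, and the Dst probe at 0.54 is the only one called.

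Bile duct cells, which carry keratins of their own and many junctions, left little signal on these arrays. Of 16 probes for 11 cholangiocyte marker genes, 10 were detected on no array and 3 were kept, with none called. Krt19, a defining keratin of bile ducts, was detected on no array (4.30 in KO and 4.29 in WT), nor were Cftr and Cd24a, and Krt7 was detected on 1 KO and 1 WT array. Sox9 was detected on 1 KO array and 4 WT arrays (-0.41, adjusted p = 0.171), Bicc1 differed by 0.07 (adjusted p = 0.854) and Ddit4l by -0.0074 (adjusted p = 0.989). The summed level of the 16 probes, on the linear normalized scale, was 334 to 345 on KO arrays and 341 to 344 on WT arrays. With 13 of the 16 probes not kept, these sums are mostly background and cannot show whether bile duct signal was alike. In whole liver, fewer cells of a type and less RNA per cell cannot be told apart.

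Markers of other cell types showed 1 call. Mesothelial markers had 2 of 12 probes kept, both of Upk3b (0.13 and -0.02, none called), and Msln was detected on no array. The summed mesothelial level, also mostly background, was 256 to 272 in KO and 245 to 266 in WT. Acinar pancreas markers had 3 of 14 probes kept and 9 detected on no array. Cela1 was at -1.36 (adjusted p = 0.0671), Cela2a at -0.92 (adjusted p = 0.113) and Amy2a5 at 0.16 (adjusted p = 0.769). The sums over the 14 probes did not overlap (432 to 730.3 in KO and 805 to 927 in WT). They mostly follow Cela1, whose WT mean was 9.15, against 5.68 for Cela2a and 5.30 for Amy2a5, so they do not describe pancreas markers as a whole. Stellate cell and fibroblast markers lay above 0 on 7 of 7 kept probes with none called (sum 3199 to 4803 in KO and 3106 to 3348 in WT), Kupffer cell markers below 0 on 9 of 10 with none called (1555 to 2208 in KO and 1703 to 2775 in WT), and endothelial markers above 0 on 6 of 9 with none called (2559 to 2977 in KO and 2432 to 2570 in WT), and erythroid markers above 0 on 1 of 3 with none called (4088 to 12146 in KO and 5435 to 11691 in WT). Of 7 kept hepatocyte probes 1 was called, Cps1, the first enzyme of the urea cycle, at 0.83 (adjusted p = 0.0270), while its other probe gave 0.50 (adjusted p = 0.119) and Apoa1 and Ttr 0.10 and 0.04, and the hepatocyte sums were 56681 to 63706 in KO and 47264 to 53577 in WT. Without the Cps1 probes these sums overlapped (35705 to 39481 in KO and 35011 to 36671 in WT). Of 8 hepatocyte genes with a probe 6 were kept, although the Alb probe was near background (4.80 in KO and 4.63 in WT) and those of Fgb and Tat were detected on no array. The part of these markers in the values of Ppl, the keratins and the junction genes was not tested.

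**Figure D5:**
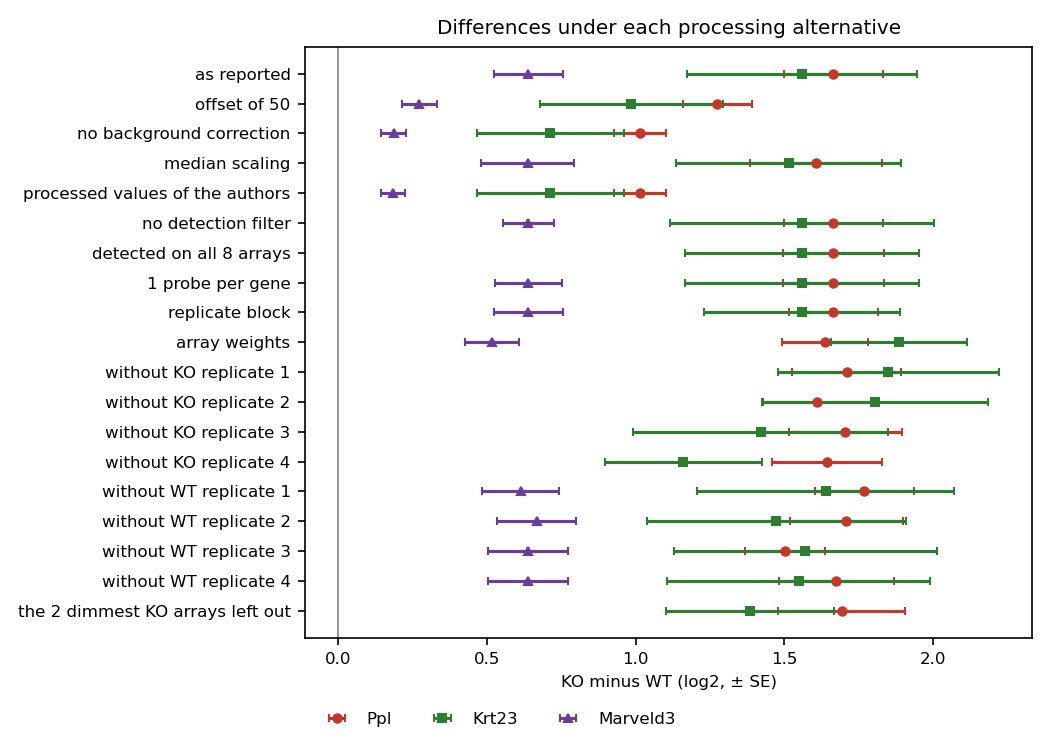
Difference KO minus WT in log2 units (horizontal axis, ± SE) of Ppl probe 1, Krt23 and Marveld3 probe 1 as reported (top) and under each alternative processing (rows), where a missing triangle means that Marveld3 fell below the detection filter. Ppl stays between 1.02 and 1.77, and Krt23 runs from 0.71 to 1.88.

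Over the 18 alternatives the difference of Ppl probe 1 was 1.02 to 1.77 and that of Krt23 was 0.71 to 1.88. Marveld3 probe 1 had a value in 12 of them, with differences of 0.19 to 0.67. It was called in 5 of those 12, beside 18 of 18 for Ppl probe 1 and 3 of 18 for Krt23. The choice of these genes on the same contrast favours such calls, and nothing is read from them. Differences of Krt8, Krt18, Cldn1, Ocln and Tjp1 were also above 0 in all 18, and Cldn3 and Cdh1 each turned positive in 1.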

How the data were processed

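Liver RNA of 4 KO and 4 WT mice was hybridised with 1 array per animal, and groups and replicate numbers were read from the sample titles. The authors deposited non-normalized intensity and a detection p-value per probe and array, plus a table of processed intensity with nearly equal medians (normalization software not given in the sources used here). In R 4.3.3 with limma 3.58.1, normexp background correction (negative control moments inferred from the detection p-value, offset 16), quantile normalization over 8 arrays and log2 were applied. Of 25697 probes, 23978 had 1 gene symbol, 1719 had none, and 10945 detected at p under 0.05 on at least 4 arrays were fitted probe by probe (lmFit and eBayes, 2-sided, no covariate), with Benjamini-Hochberg adjustment. Number of arrays limits the precision, and quantile normalization hides a change of total RNA. Where a group had no detected value, the bound sets the detected group's mean against the other group's, each array's value there raised to its lowest detected signal if below it. Only the probe-by-probe fit was tested on simulated data, with independent noise on each array. Background correction, normalization and the detection filter were not part of that test.

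The 10 genes, the lists and the tests were chosen with earlier results of these data known. Named genes are the 10 genes with every probe, Snd1, up to 4 genes of each related list with the lowest p, the 5 most like Ppl, up to 3 markers of each list with the highest mean, with defining bile duct and mesothelial markers added after their values were seen, and probes standing apart in their group. A related gene with several kept probes is given by the one with the lowest p unless others are named. Krt75 was added to complete the kept keratin probes. Promoter windows were RefSeq's (GRCm38.p6).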

Additional observations from a re-analysis of the deposited data

Results flagged for a closer look

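Among 98 groups of 4 arrays checked for the named probes, 4 had a value set apart from the other 3 by more than Dixon's 95% limit allows, and chance gives about 1 in 20 such groups. Plekha7, an adherens junction gene, was 4.27 on KO 4, against 4.72 to 4.75 on the other KO arrays. Fads2, which was among the 5 genes most like Ppl, was 9.94 on KO 4, against 9.31 to 9.38 on the other KO arrays. Sprr2a1, a cornified envelope gene close to background, was 4.39 on WT 3, against 4.82 to 4.90 on the other WT arrays. Krtcap3 was 6.59 on WT 2, against 6.94 to 6.96 on the other WT arrays. None of the 12 probes of the 10 genes was set apart in this way.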

How the results depend on the processing

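Of all kept probes 276 were called, and 121 with median scaling instead of quantile normalization (16 higher and 105 lower, 13.2% higher against 48.2%), 84 without the detection filter, 131 with the replicate number as a block, 2919 with array weights (KO 3 at 5.09 and KO 1 at 0.26) and 48 to 618 with 1 array left out, lowest without WT 3 (48), KO 3 (54), WT 2 (56) and WT 4 (85) and highest without KO 1 (618), with 165 without KO 4 and 175 without KO 2. Of the 12 probes of the 10 genes 2 were called, a count that the choice of these genes on the same contrast favours and that supports nothing, and 1 with an offset of 50, no background correction, median scaling, the authors' processed values or detection on all 8 arrays, 4 with array weights and 1 to 2 with 1 array left out, where 1 was left without KO 2, KO 3, KO 4, WT 2, WT 3 or WT 4. Of the related probes 1 was called, and 0 with those 5 settings, no filter, 1 probe per gene or the replicate block, 25 with array weights, 0 to 2 with 1 array left out and 2 without KO 1 and KO 4, an alternative chosen after seeing the data. The cause was not tested.

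Turned directions were those of Lor (-0.0615 with array weights, -0.0553 to 0.20 with 1 array left out), Cldn14 (-0.0101 to 0.28), Krt10 (-0.11 to 0.31) and Gja4 (-0.32 to 0.0273), and, without KO 1 and KO 4, Gjb2 (-0.082) and Krt78 (0.0819). Same-numbered KO and WT arrays correlated at -0.09 to 0.10 in their deviations, with 1 of 4 pairs over 0.1 and 2 of 4 KO arrays closest to their own number, so the numbers were not taken as pairs, and the block left 2 of the 10 genes' probes called. Snd1 had no value with a WT array left out or detection on all 8 arrays required, and Marveld3 probe 1 none with a KO array left out or that filter. A block for the slide was not run, since the headers name none. Dim probes (Ppl probe 2, Marveld3, Tjp1) lie near the negative controls, where the background correction and the offset set the size of a difference. Krt23 in the WT livers (deposited intensities 98.1 to 111) and Ocln (96.3 to 142) were dim as well. The Krt23 difference was 1.56 as reported and 0.71 without background correction.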
